A study of Homo sapiens with 6 samples.

Results

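The interferon response and class I antigen presentation genes were examined in SW480 cells, an established line from a human colorectal adenocarcinoma, after targeting of HPSE, the gene of heparanase. The list held 44 genes, which were taken by name and looked up by Ensembl identifier in a table of 59192 features. Of these 44 members, 34 had a row of their own and 31 passed a minimum mean of 10 normalized counts, as did 21703 features in all. RNA was sequenced from 3 libraries of SW480-45, labelled as HPSE-knockdown, and 3 libraries of SW480-NC, labelled as control. The study describes the libraries as independent experiments and calls the knockdown line that was sequenced SW480-KD1, which was assumed here to be the line labelled SW480-45. Both lines carry a lentiviral Cas9 construct with puromycin selection and a second lentivirus for a guide RNA and EGFP. SW480-45 differs from SW480-NC by the guide, which targets an exon of HPSE in the former and is a control guide in the latter. Each group is a single stably infected line, not stated to be a clone, so differences between the lines, the integration sites of the guide virus included, cannot be told apart from the effect of the guide. Cas9 and EGFP constructs were present in both.

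Interferons are secreted proteins that bind receptors coupled to the kinases JAK1, JAK2 and TYK2. Type I and type III interferons activate a complex that contains STAT2 and IRF9 and binds the interferon-stimulated response element (ISRE) in promoters, while interferon gamma acts through the gamma-activated site (GAS). The genes switched on in this way encode antiviral effectors, sensors of viral RNA and the machinery that loads peptides on class I molecules for display to T cells. In colon epithelium this program takes part in the defence against viruses and in the recognition of tumor cells.

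The libraries held 33221323 to 39802365 reads on the features. HPSE itself had 136, 172 and 146 normalized counts in SW480-45 and 270, 295 and 246 in SW480-NC, so that all 3 SW480-45 libraries lay below the others. This is a log2 fold change of −0.83 with a standard error of 0.14, at an adjusted p of 0.0547 from limma and 0.000948 from DESeq2. The epithelial label was checked on 7 marker genes, of which 5 had a row, and their summed level was 106664 to 115221 normalized counts in SW480-45 and 121025 to 127970 in SW480-NC, without overlap. This sum was mostly KRT8, at 70496 to 78795 and at 84093 to 90059, whereas VIL1 was higher in every SW480-45 library (log2 fold change 0.20). Immune markers, 4 with a row of 6, summed to 48.0 to 66.4 in SW480-45 and 51.2 to 65.9 in SW480-NC, with NKG7 among those below the minimum. Fibroblast markers, 3 of 4, summed to 279.8 to 387 and to 229 to 263, mostly COL1A1, with LUM below the minimum. Endothelial markers, 3 of 3, summed to 28.0 to 43.2 and to 12.6 to 26.5, with CDH5 below the minimum. The part of these markers in the results was not tested, and fewer cells of a type cannot be told from less RNA per cell in bulk RNA.

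Across the 31 tested members, none differed between the lines at an adjusted p under 0.05 (limma with Benjamini-Hochberg adjustment over all features), against 0.802% of all features tested. The smallest adjusted p was 0.123, for IFITM3. At an unadjusted p under 0.05, 7 members were higher in SW480-45, namely IFITM3, BST2, IFIT1, IFIT3, OAS1, OAS2 and OAS3, and 1, IFIT5, was lower. These counts are 22.6% and 3.23% of the members, beside 8.10% of all features on the higher side and 8.15% on the lower side. In the edgeR quasi-likelihood test on the recovered reads 0 members passed an adjusted p of 0.05, against 0.627% of all features. In DESeq2 1 of the 27 members with an adjusted p passed, IFITM3 (adjusted p = 0.0313), which is 3.70% beside 4.55% of all features with one. No member changed by 2-fold or more, and for 24 of the 31 the 95% interval of the log2 fold change lay between −1 and 1. The exceptions, whose intervals reached a 2-fold change, were IFI6, IFI27, IFI44, IFIT1, MX1, OAS2 and DHX58.

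The promoters of the members whose levels are described first are shown because they hold the letters of the ISRE. In RefSeq promoter windows on GRCh38.p14, from 250 bases before to 50 bases after a gene's start, 33 of the 44 members had at least 1 window. The letters GAAANNGAAA were sought on both strands, with overlapping matches counted, and 23 of the 33 members (69.7%) held them, against 4.38% of all 27305 genes with a window. The GAS letters TTCNNNGAA, which read alike on both strands, were in 11 of the 33 (33.3%), against 9.38% of all genes, and in IFI27, IFITM1, BST2 and a window of MX1 they overlapped ISRE letters. The members were listed for their known part in the interferon response, so these shares describe the list and not the libraries. A match is a run of letters in this window and does not show binding. In the following stretches, read along the gene, capitals mark the ISRE letters, which appear as TTTCNNTTTC where they lie on the opposite strand. The IFITM3 stretch is on the minus strand at chr11:320886-320912, inside an exon of a longer annotated transcript. The BST2 stretch is on the minus strand at chr19:17405725-17405780. The 3 IFIT stretches are on the plus strand, at chr10:89392487-89392549 for IFIT1, chr10:89327821-89327904 for IFIT3 and chr10:89414503-89414567 for IFIT5.
IFITM3: GAAAAGGAAActgttgaGAAACCGAAA
BST2: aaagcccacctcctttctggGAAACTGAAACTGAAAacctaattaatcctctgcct
IFIT1: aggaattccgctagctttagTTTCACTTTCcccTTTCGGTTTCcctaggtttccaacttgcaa
IFIT3: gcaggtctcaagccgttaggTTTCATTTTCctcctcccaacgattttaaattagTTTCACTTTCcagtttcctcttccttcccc
IFIT5: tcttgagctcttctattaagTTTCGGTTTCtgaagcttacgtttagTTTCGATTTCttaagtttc

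Each of these stretches holds 2 matches to the ISRE letters, and IFIT5, whose mean was lower in SW480-45, holds them as IFIT1 and IFIT3 do. A further match of IFIT5 spans its RefSeq start, and another RefSeq window of IFIT3 holds 2 more. OAS3, also past the unadjusted threshold, holds 2 matches before its start. Its stretch is not shown because too many of its bases lie in annotated exons. The bases after the RefSeq start were found in a GENCODE 29 transcript for 31 of the 33 members, the exceptions being IFIT5 and SAMD9L. Of the 24 tested members with a window, 19 held the ISRE letters, 15 with a positive and 4 with a negative log2 fold change and a median of 0.28. The other 5, IFI35, OAS1, STAT2, IRF1 and DDX58, had 4 positive values and 1 negative value and a median of 0.21.

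Before the differences, the levels of the members are described. The series has no interferon-treated cells, so the levels do not show how active the program was. Normalized counts were divided by the length of each gene's exons in kb, so that genes could be ranked, and the rank is by the SW480-NC mean. Exons of all annotated transcripts were merged, so the rank also depends on the annotation. BST2, which encodes tetherin, was at 1318 normalized counts per kb in SW480-NC and HLA-E, a non-classical class I chain, was at 1318. Then came B2M, the light chain of all class I molecules, at 953, TAPBP, the tapasin of the loading complex, at 538 and ISG15, a ubiquitin-like modifier, at 367. IFIT1 was at 4.64, IFI27 at 2.75 and MX1 at 2.27 per kb, although all of them are among the genes that interferon raises most in many cells. MX2, SAMD9L and IFI44L were below the minimum of 10 normalized counts. MX2 had 6, 8 and 16 reads in SW480-45 and 0, 0 and 5 in SW480-NC. SAMD9L had 4, 0 and 4 reads in SW480-45 and 0 in every SW480-NC library, and IFI44L had 6 reads in 1 SW480-45 library and 0 elsewhere. A count of 0 allows up to 3 reads, 2.71 to 3.18 normalized counts depending on the library, so no fold is given for these 3 genes. The span from BST2 to MX1 is therefore wide in either line, and for most members the levels of the lines differ little on the scale of the plot of levels per kb.

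**Figure D1:**
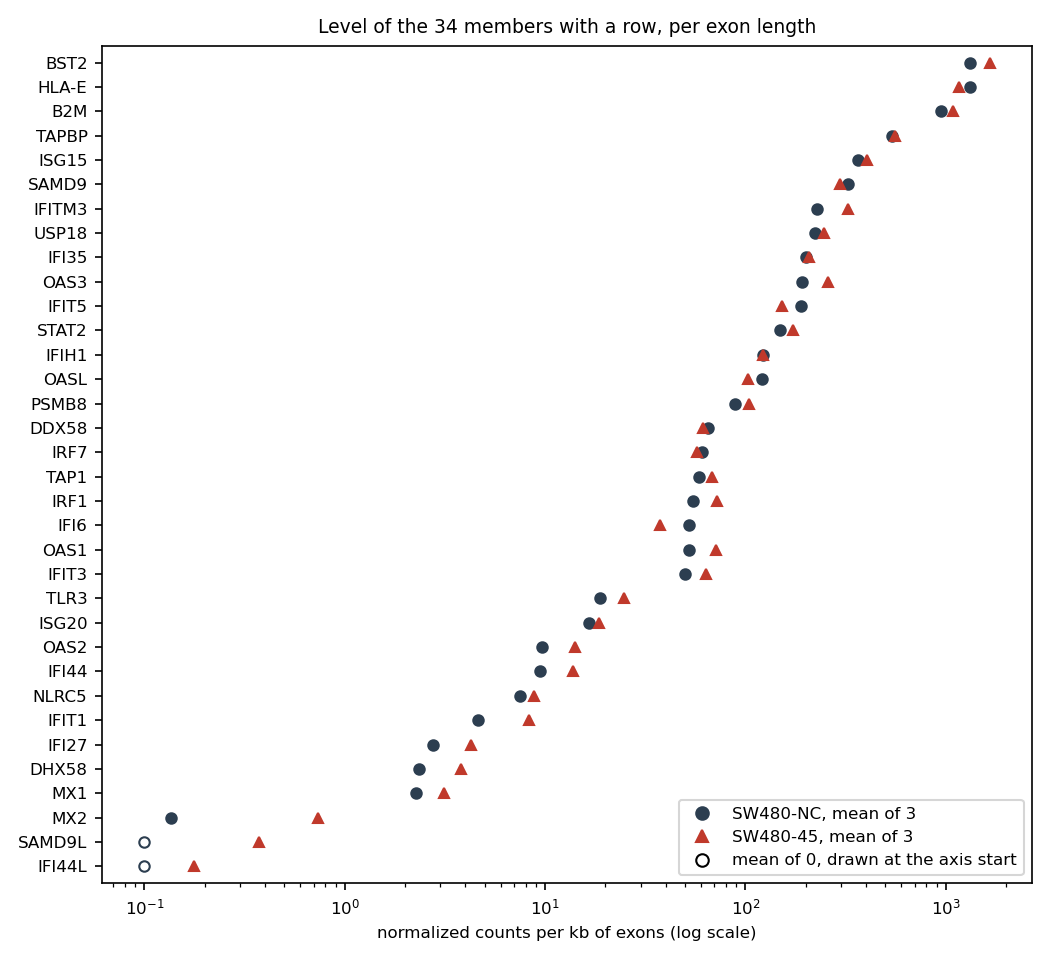
Level of the 34 members with a row, as the mean of 3 libraries in normalized counts per kb of exons on a log axis, for SW480-NC (circles) and SW480-45 (triangles), in the order of SW480-NC. BST2, HLA-E and B2M lie highest, and MX2, SAMD9L and IFI44L lie lowest with 1 or no SW480-NC library above 0.

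Among the membrane and mitochondrial proteins of the interferon response, IFITM3 and BST2 were higher in SW480-45 at an unadjusted p under 0.05. IFITM3 (ENSG00000142089, chromosome 11 from 319669 to 327537 in GENCODE 29 on GRCh38) blocks the fusion of enveloped viruses with endosomal membranes. It had 381, 492 and 448 normalized counts in SW480-45 and 306, 302 and 317 in SW480-NC. Every SW480-45 library lay above every SW480-NC library, and the spread was wider in SW480-45. The means were 440.4 ± 56.2 (SD, n = 3) and 309 ± 7.60 (SD, n = 3), a log2 fold change of 0.50 with a 95% interval of 0.22 to 0.79 (unadjusted p = 0.00392, adjusted p = 0.123 from limma). IFITM3 resembles IFITM1 and IFITM2 in sequence, and how reads common to them were counted is not given in the sources used here. With each library left out in turn its unadjusted p from limma stayed at 0.0164 or lower.

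BST2 tethers budding virus particles to the cell membrane. It had 1847, 1996 and 1727 normalized counts in SW480-45 and 1263, 1389 and 1773 in SW480-NC. The lines overlapped, because SW480-NC replicate 3 lay above SW480-45 replicate 3. The log2 fold change was 0.34 (standard error 0.13, unadjusted p = 0.0339 from limma), and it ranged from 0.24 to 0.48 with each library left out. In those fits the unadjusted p from limma reached 0.112. The other tested genes of this group did not pass the unadjusted threshold. IFI27 at 0.58, IFI44 at 0.55, IFI35 at 0.06 and IFI6 at −0.43 on the log2 scale had overlapping libraries. The intervals of IFI27, IFI44 and IFI6 were wide, as in the case of IFI27 from −0.53 to 1.68.

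The IFIT proteins bind viral RNA ends that lack host modifications, and their genes lie close together on chromosome 10, with IFIT3, IFIT1 and IFIT5 between 89327894 and 89421001 in GENCODE 29. In this cluster IFIT1 and IFIT3 were higher in SW480-45 and IFIT5 was lower. IFIT5 had 641, 597 and 591 normalized counts in SW480-45 and 763, 751 and 758 in SW480-NC. All 3 SW480-45 libraries lay below the SW480-NC libraries, which were close together. The means were 610 ± 27.5 (SD, n = 3) and 757 ± 5.63 (SD, n = 3), a log2 fold change of −0.31 with a 95% interval of −0.52 to −0.11 (unadjusted p = 0.00735, adjusted p = 0.151 from limma). Its unadjusted p was 0.0237 or lower in each fit without 1 library.

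IFIT3 had 186, 150 and 170 normalized counts in SW480-45 and 139, 137 and 120 in SW480-NC, without overlap. Its log2 fold change was 0.35 (standard error 0.15, unadjusted p = 0.0459 from limma), and this p reached 0.148 in the fits without 1 library. IFIT1 had 40.1, 45.2 and 30.1 normalized counts in SW480-45 and 19.9, 13.5 and 30.7 in SW480-NC, where replicate 3 of both lines was at nearly the same level. Its log2 fold change of 0.87 was the largest of the tested members, but it rested on 14 to 50 reads per library and its interval ran from 0.05 to 1.70 (unadjusted p = 0.0407 from limma). For IFIT1 this p reached 0.122 in the fits without 1 library. Within each library, the log2 ratio of IFIT3 to IFIT5 was −1.78, −1.99 and −1.79 in SW480-45 and −2.45, −2.45 and −2.65 in SW480-NC. This ratio was formed after the values of both genes were seen, so it is a description. An exact permutation test on it gave p = 0.1. No conclusion is drawn from that p, because the pair was picked on these same values.

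The OAS enzymes sense double-stranded RNA and make oligoadenylates that activate RNase L. OAS1, OAS3 and OAS2 lie next to each other on chromosome 12, and all 3 were higher in SW480-45 at an unadjusted p under 0.05. OAS3 had 2568, 1839 and 1961 normalized counts in SW480-45 and 1514, 1446 and 1768 in SW480-NC. The lines did not overlap, and SW480-45 replicate 1 was the highest of all. Its log2 fold change was 0.42 (standard error 0.14, unadjusted p = 0.0191, adjusted p = 0.219 from limma). OAS2 had 114, 74.1 and 77.3 normalized counts in SW480-45 and 64.9, 54.1 and 62.6 in SW480-NC, again without overlap and with SW480-45 replicate 1 well above the rest. OAS1 had 302, 377 and 376 in SW480-45 and 192, 270 and 313 in SW480-NC, where the groups overlapped. The log2 fold changes were 0.52 for OAS2 (unadjusted p = 0.0461 from limma) and 0.46 for OAS1 (unadjusted p = 0.0473 from limma), the latter at 0.26 without SW480-NC replicate 1. OASL, which lies elsewhere on chromosome 12 and encodes a relative without the enzyme activity, was at −0.25 with an interval of −0.68 to 0.18. Without SW480-45 replicate 1 the log2 fold changes were 0.27 for OAS3 and 0.32 for OAS2, and neither passed the unadjusted threshold. In some fits without another library, OAS1, OAS2 and OAS3 each failed to pass it as well. Over the fits without 1 library the unadjusted p from limma reached 0.0638 for OAS3, 0.166 for OAS2 and 0.140 for OAS1.

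**Figure D2:**
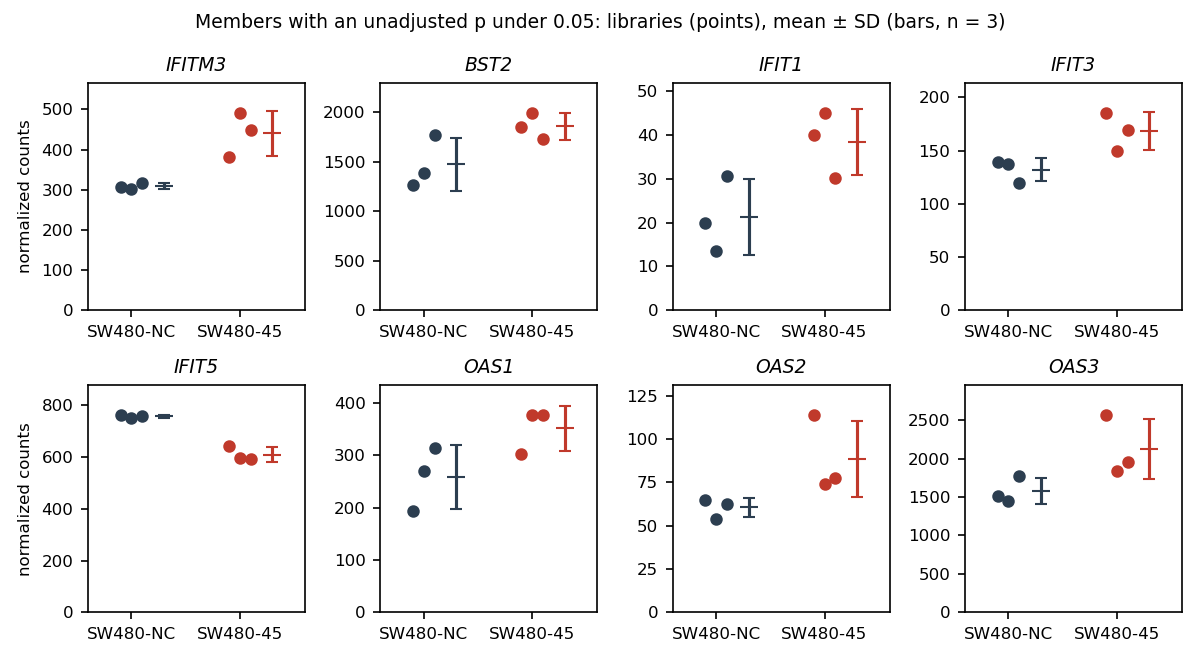
Normalized counts (linear axis from 0) of the 8 members with an unadjusted p under 0.05 in the 3 SW480-NC and 3 SW480-45 libraries, with the mean ± SD beside the points. IFITM3, IFIT3, OAS2 and OAS3 are higher and IFIT5 is lower in SW480-45 without overlap, while BST2, IFIT1 and OAS1 overlap.

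Separation of the libraries without overlap was seen for 5 members on the higher side (16.1% of those tested, beside 11.4% of all features), which were IFITM3, IFIT3, OAS2, OAS3 and STAT2. On the lower side 2 members were separated, IFIT5 and HLA-E (6.45%, beside 12.0% of all features).

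Other antiviral effectors did not pass the unadjusted threshold. SAMD9, a restriction factor of poxviruses, had 2090, 1799 and 2208 normalized counts in SW480-45 and 2283, 2355 and 2045 in SW480-NC. The lines overlapped, at −0.14 on the log2 scale with an interval of −0.37 to 0.10. ISG20, an exonuclease, was at 0.16 and MX1, a dynamin-like GTPase, at 0.45 with an interval of −0.39 to 1.29. For the ISG15 pathway, USP18, the protease that removes ISG15 and dampens receptor signaling, had 505, 568 and 498 normalized counts in SW480-45 and 468, 456 and 503 in SW480-NC. These lines overlapped, and its log2 fold change was 0.14 (interval −0.10 to 0.38). ISG15 was at 0.16 (interval −0.42 to 0.73).

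Of the transcription factors, STAT2 came closest to the unadjusted threshold. It had 968, 1151 and 1039 normalized counts in SW480-45 and 867, 913 and 935 in SW480-NC. The groups did not overlap, and the log2 fold change was 0.21 (interval −0.01 to 0.44, unadjusted p = 0.0562 from limma). IRF1, a factor that responds to interferon gamma, was at 0.37 (interval −0.02 to 0.76) and NLRC5, the transactivator of class I genes, at 0.24 (interval −0.23 to 0.71). IRF7, the factor that amplifies type I interferon production, was at −0.03 (interval −0.62 to 0.55).

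Of the cytosolic sensors of viral RNA, IFIH1 and DDX58 had log2 fold changes near 0 and DHX58 was measured with a wide interval. IFIH1, which encodes MDA5, had 585, 656 and 635 normalized counts in SW480-45 and 596, 654 and 629 in SW480-NC. The 2 ranges covered nearly the same values, and the 95% interval of the log2 fold change, −0.22 to 0.22, leaves room for only small changes. DDX58, which encodes RIG-I, was at −0.08 (interval −0.33 to 0.17). DHX58, which encodes LGP2, was at 0.69 with an interval of −0.43 to 1.81 on a mean of 9.0 to 14.6 normalized counts. TLR3, the endosomal receptor for double-stranded RNA, had 143, 170 and 187 normalized counts in SW480-45 and 145, 137 and 97.6 in SW480-NC. These overlapped by 1 library, and the log2 fold change was 0.40 (interval −0.05 to 0.86, unadjusted p = 0.0728 from limma).

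In class I presentation none of the 5 tested members passed the unadjusted threshold with all libraries. In fits without 1 library the log2 fold change ran from −0.22 to −0.11 for HLA-E and from 0.07 to 0.33 for B2M. For TAP1 it ran from 0.13 to 0.34, for PSMB8 from 0.06 to 0.55 and for TAPBP from 0.007 to 0.10. In these fits HLA-E passed only without SW480-NC replicate 1 and B2M only without SW480-45 replicate 3. TAP1 and PSMB8 passed only without SW480-NC replicate 3. Such passes show dependence on single libraries and are not calls, and the share over all features was not counted. HLA-E, which presents leader peptides to natural killer cells, had 3463, 3454 and 3499 normalized counts in SW480-45 and 3662, 3811 and 4288 in SW480-NC. Every SW480-45 library lay below the SW480-NC libraries, and the log2 fold change was −0.17 (interval −0.35 to 0.01, unadjusted p = 0.0596 from limma). Class I genes resemble each other, so HLA-E reads may be affected by how shared reads were assigned. B2M had 7782, 6693 and 5448 normalized counts in SW480-45 and 6332, 6167 and 4882 in SW480-NC, and replicate 3 was the lowest library of both lines. The log2 fold change of B2M was 0.19 (interval −0.15 to 0.54), and it was 0.07 without SW480-45 replicate 1 or without SW480-NC replicate 3.

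TAP1, a subunit of the transporter that brings peptides into the endoplasmic reticulum, had 331, 318 and 333 normalized counts in SW480-45 and 246, 269 and 332 in SW480-NC. SW480-NC replicate 3 was within the SW480-45 range, and the log2 fold change was 0.22 (interval −0.09 to 0.54). TAPBP had 2953, 2858 and 2686 normalized counts in SW480-45 and 2878, 2528 and 2757 in SW480-NC. Its log2 fold change was 0.06 (interval −0.13 to 0.24). PSMB8, a catalytic subunit of the immunoproteasome, had 309, 297 and 329 in SW480-45 and 186, 243 and 368 in SW480-NC. The SW480-NC libraries enclosed those of SW480-45, and the log2 fold change of 0.28 had an interval of −0.25 to 0.82. Without SW480-NC replicate 1 it was 0.06 for PSMB8 and 0.13 for TAP1. PSMB8 and TAP1 are among 7 of the 34 members with a row whose exons overlap a gene on the opposite strand in GENCODE 29, the others being IFITM3, MX1, OAS1, ISG15 and IRF1, and the sources used here do not state that strand was used in counting.

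**Figure D3:**
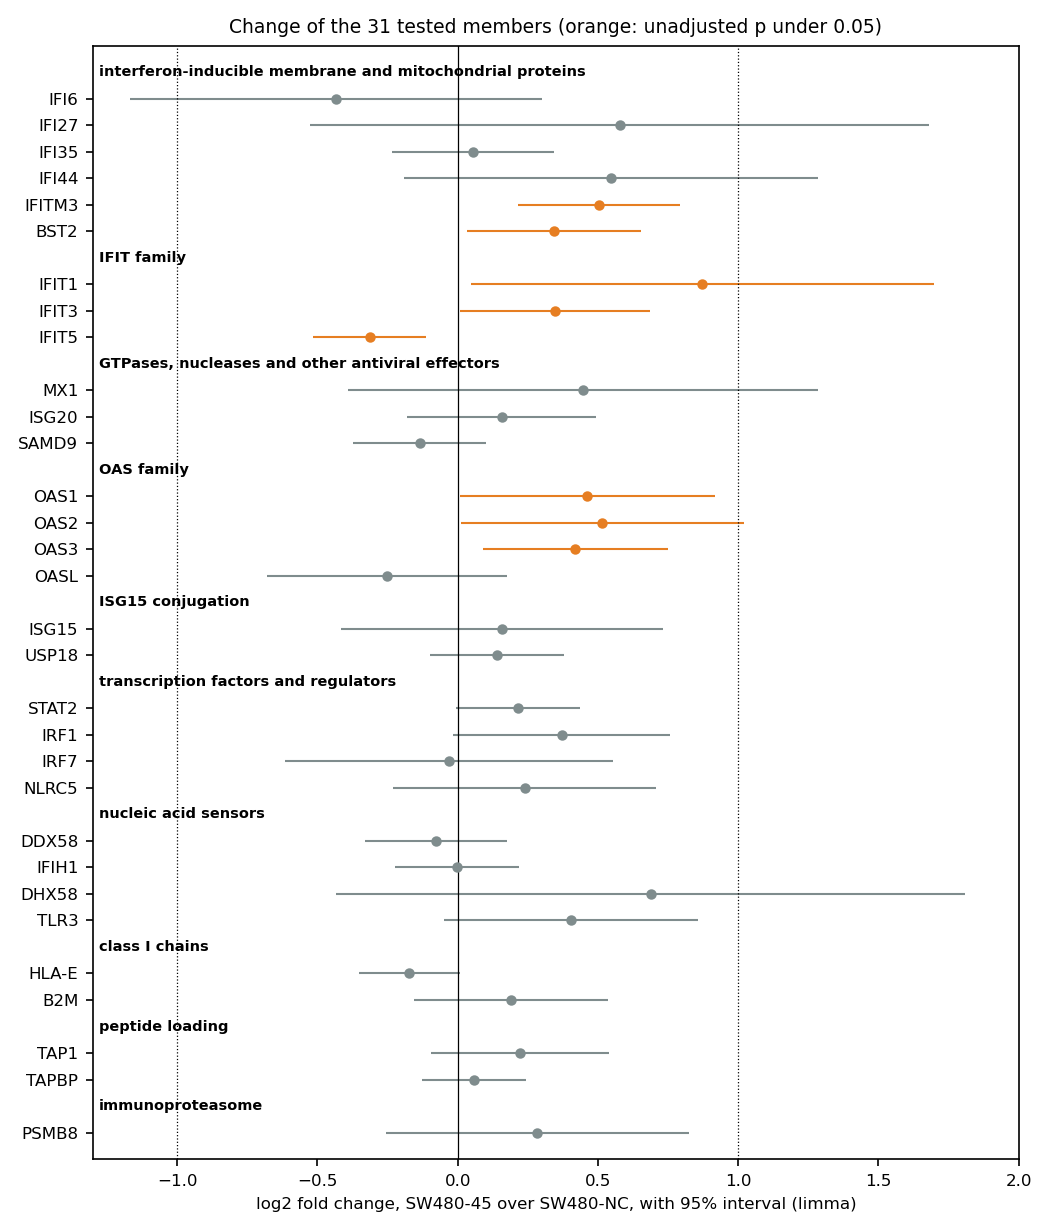
Log2 fold change of SW480-45 over SW480-NC (points) with the 95% interval from limma (bars) for the 31 tested members, grouped by role, with dotted lines at a 2-fold change. The 8 members with an unadjusted p under 0.05 are orange, and IFIT5 is the only one of them below 0.

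The remaining 10 members were not analysed here: IFITM1, IFITM2, IFIT2, TRIM22, IRF9, HLA-B, HLA-C, TAP2, PSMB9 and PSMB10. In GENCODE 29, all 10 share exon bases with another gene on the same strand, such as HLA-B with HLA-C and IFITM1 with IFITM2, whereas 0 of the 34 members with a row do. The split was less sharp among the further pathway genes described later, where 5 of 20 without a row and 4 of 60 with a row share exon bases in this way. The table also holds 33265 loci named by a transcript assembler, which carry no gene name there, and whether reads of the 10 genes were counted under such loci was not tested. The classical class I chains are thus represented here by neither HLA-B nor HLA-C.

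Library by library, the members lay slightly apart by line. The median over the 31 members of the log2 difference from the mean of the 6 libraries was 0.04, 0.09 and 0.08 in SW480-45 and −0.07, −0.14 and −0.01 in SW480-NC. Of the 31 members, 19, 26 and 20 lay above their own mean in SW480-45 and 12, 8 and 15 in SW480-NC. The median log2 fold change was 0.22, with 23 members at positive and 8 at negative values, beside a median of −0.0048 and 49.3% positive values over all features tested. The summed level of the 31 members, which B2M and HLA-E dominate, was 27848, 26217 and 24423 normalized counts in SW480-45 and 24434, 24090 and 24362 in SW480-NC, so SW480-45 replicate 3 lay within the range of SW480-NC. The count of members past the unadjusted threshold depended on single libraries, which gave 4 when SW480-45 replicate 1 was left out, 3 when SW480-NC replicate 1 was and 2 when SW480-NC replicate 2 was, the last being IFITM3 and IFIT5.

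**Figure D4:**
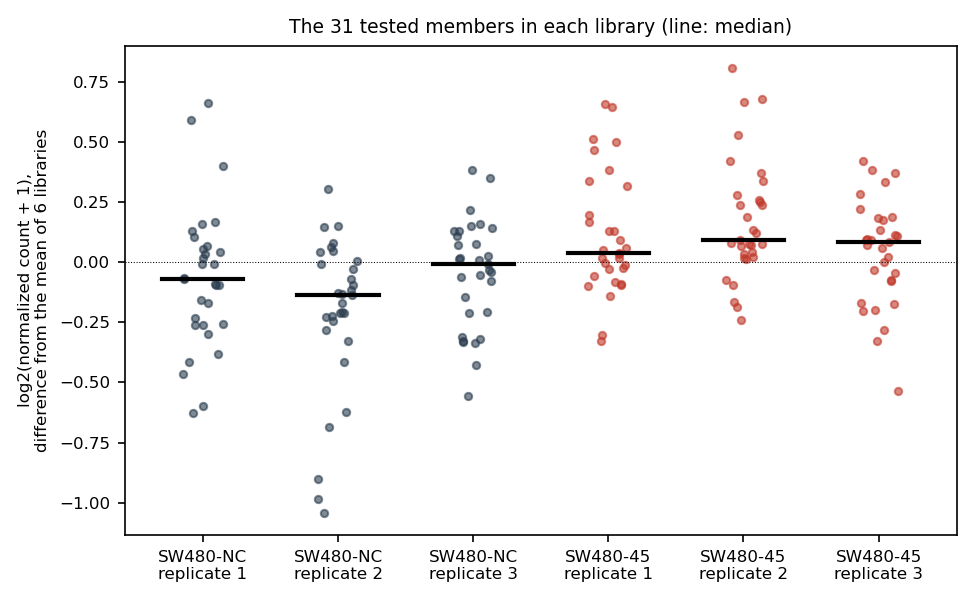
Difference of log2(normalized count + 1) from the mean of the 6 libraries for each of the 31 tested members (points), with the median in each library (black line). The medians lie at −0.07, −0.14 and −0.01 in SW480-NC and at 0.04, 0.09 and 0.08 in SW480-45, and the points of all libraries overlap.

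Of 80 further genes of the pathway, 60 had a row and 51 were tested. At an adjusted p under 0.05 from limma 0 of them passed, and edgeR also called 0. DESeq2 called MB21D1 and RFX5, 4.26% of the 47 with an adjusted p, close to the 4.55% of all features. At an unadjusted p under 0.05 from limma, 4 were higher (7.84% of those tested) and 5 lower (9.80%) in SW480-45, close to the 8.10% and 8.15% of all features, and the median log2 fold change was 0.04. Among ligands and receptors, IFNGR2, a chain of the interferon gamma receptor, was at 0.17 and IFNAR1, a chain of the type I receptor, at −0.14, and neither passed. PTPN2, a phosphatase that acts on JAK and STAT proteins, had a log2 fold change of −0.30 (unadjusted p = 0.00625 from limma).

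The cytosolic DNA sensor and its adaptor had log2 fold changes of opposite sign. MB21D1, which encodes cGAS, had 1009, 1095 and 1005 normalized counts in SW480-45 and 1619, 1519 and 1301 in SW480-NC. The lines did not overlap, and the difference was −0.51 on the log2 scale with a standard error of 0.10 (adjusted p = 0.0869 from limma and 0.00465 from DESeq2). TMEM173, which encodes STING, the adaptor that acts after cGAS, had 85.4, 65.0 and 80.1 normalized counts in SW480-45 and 39.7, 36.7 and 61.5 in SW480-NC. It did not overlap either, at a log2 fold change of 0.76 (unadjusted p = 0.0173, adjusted p = 0.21 from limma).

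Of the further interferon-stimulated genes, 16 were tested, and UBE2L6 and DTX3L had the smallest p. The log2 fold change was positive for 12 of these 16 and negative for 4, with a median of 0.16. This median lay above that of 0.04 over all 51 tested pathway genes. UBE2L6, an ISG15-conjugating enzyme, had 4 to 32 reads per library and a log2 fold change of 1.47 (interval 0.29 to 2.64). DTX3L, a ubiquitin ligase, was at −0.20 (unadjusted p = 0.0208 from limma). In class I presentation, ERAP1, the peptidase that trims peptides in the endoplasmic reticulum, was at −0.26 (unadjusted p = 0.0202 from limma). CANX, the chaperone calnexin, was at −0.51 (unadjusted p = 0.0551 from limma), with 21455 normalized counts in SW480-45 replicate 1 against 40666 and 40688 in its other libraries and 46044 to 47458 in SW480-NC. Of the class II genes, HLA-DRA, HLA-DPA1 and CD74 were below the minimum. RFX5, a subunit of the factor that binds class II and class I promoters, had 2319, 2113 and 2161 normalized counts in SW480-45 and 1661, 1534 and 1259 in SW480-NC. The lines did not overlap, at 0.57 on the log2 scale with a standard error of 0.11 (adjusted p = 0.0814 from limma and 0.00227 from DESeq2). RFXANK, another subunit of the same factor, was at 0.20 (unadjusted p = 0.0812 from limma).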

How the data were processed

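Libraries were prepared by the authors with the NEBNext Ultra RNA kit and sequenced on an Illumina instrument. The submitters' processing notes name bcl2fastq, HISAT2, DESeq2 and GRCh38, without versions or roles, while the paper names Cuffdiff. The annotation is not given in the sources used here. The deposited table gives a signal for each feature, which the authors obtained from gene counts scaled by 1 factor per library. Each column held whole multiples of its smallest value, and 100% of the values came out as whole reads within a tolerance of 0.001 reads, widened in proportion for large counts.

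Identifiers were matched to GENCODE 29 symbols (25768 of 25927). limma 3.58.1 in R 4.3.3 was run with an intensity trend on log2(normalized count + 1) on the 21703 features whose mean reached 10, and fold changes are on this scale. p-values are two-sided and Benjamini-Hochberg adjusted over all of them. edgeR 4.0.16 and DESeq2 1.42.0 were run on the recovered reads as alternatives, beside other scalings, filters and pseudocounts, a replicate block and fits without 1 library. The steps were tested on simulated data with changes larger than that of any tested member, so that check does not cover changes as small as those reported here. Intervals are 95% and not adjusted for multiple testing. The limit of 3 reads for a count of 0 covers counting error only.

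The members and the lists were chosen with earlier results of these data known. Values in every library are given for HPSE, for members with an unadjusted p under 0.05 and, in each role, for the member with the highest mean and the one with the smallest p. Of the further pathway genes, those with an adjusted p under 0.05 and at most the 2 with the smallest p in each role are named, apart from some genes that are not reported here. Exon lengths are merged exons of GENCODE 29. Figures were drawn with matplotlib 3.10.9.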

Additional observations from a re-analysis of the deposited data

How the results depend on the processing

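The 3 libraries of a line limit the adjusted test, and members with few reads have wide intervals. Of the members, 0 passed the adjusted threshold in limma and edgeR and 1 in DESeq2. The 8 members past the unadjusted threshold became 4 with quantile normalization, and 2 (without SW480-NC replicate 2) to 9 (without SW480-NC replicate 3) in fits without 1 library. In those fits the median log2 fold change of the members lay between 0.18 and 0.26. Over all features, 174 passed the adjusted threshold, against 756 in DESeq2, 11 without an intensity trend, 12 with the replicate number as a block, and 29 (without SW480-NC replicate 1) to 93 (without SW480-NC replicate 3) in fits without 1 library. The causes of these differences were not tested. The fits without 1 library have fewer samples, and their counts also differed by which library was left out. Whether libraries with the same number belong together is not given in the sources used here. Their deviations correlated at −0.020 to 0.0074 across features, beside −0.026 to 0.024 for libraries with different numbers. A correlation across all features cannot show whether single genes varied together. With the block 6 members passed the unadjusted threshold. The sign of IFIH1, at −0.0029, turned with TMM scaling (0.0042), in edgeR (0.0049) and in fits without 1 library (from −0.038 to 0.044). Of 322 values of HPSE and the named members under alternatives, 312 kept their sign and their side of the adjusted threshold. The others were 5 turned signs, all of IFIH1, and 5 values of HPSE or IFITM3 that passed only in the alternative. None of these genes passed the adjusted threshold in the main fit, so this count does not measure how stable the unadjusted calls were.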
